A study of Homo sapiens with 10 samples.

Results

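Antisense RNA genes are noncoding genes that lie on the strand opposite to a named gene, and by convention they carry that gene's symbol followed by AS and a number. The genes described here are those whose whole name ends in that way in the deposited annotation and whose transcripts summed to a mean of at least 1 CPM, the count scaled by the total of its library, over the 8 PromethION libraries, without EPB41L4A-AS1. The rule selected 173 of 1232 such genes (14.0%), in a file with 57110 gene identifiers. They were chosen by their measured mean CPM, and mean levels are given as a description. The file lists most of the others near 0: of all 1233 antisense-named genes, 695 had under 1 count in each of the 10 libraries. Just inside the threshold were KCTD21-AS1 (mean 1.01 CPM), RBPMS-AS1 (1.02 CPM) and GATA2-AS1 (1.03 CPM), and just outside it were LIFR-AS1 (0.979 CPM), KIF25-AS1 (0.961 CPM) and AFDN-AS1 (0.959 CPM).

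RNA from 7 established human ovarian cancer cell lines was sequenced on nanopore instruments, which read single molecules through protein pores, to benchmark a package for quantifying transcripts. COV362, COV504, OVKATE, OVMANA, OVTOKO and SK-OV-3 had 1 PromethION library each, and IGROV-1 had 2 PromethION and 2 MinION libraries, the MinION being the smaller instrument. All 10 libraries came from untreated lines as far as the labels say, with total RNA from a column kit, a ligation library kit and an end-repair step of 30 min. The labels do not say whether the IGROV-1 replicates came from separate cultures, so p-values measure the spread between these libraries, which may be technical. PAX8, a transcription factor of the Müllerian lineage, was present in all 10 libraries (84.1 to 340 CPM), whereas EPCAM, an epithelial surface protein, lay between 0 and 1.54 CPM in the 4 IGROV-1 libraries. Of 5 leukocyte markers the summed level was at most 16.3 CPM in any library. In IGROV-1 the summed level of 6 epithelial markers was 411 and 1224 CPM in PromethION replicates 1 and 2 and 404 and 1270 CPM in MinION replicates 1 and 2.

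Antisense transcription often starts near the promoter of the sense gene, where RNA polymerase can initiate in both directions. Many of the resulting RNAs are removed in the nucleus by the exosome, and those that persist are usually spliced and polyadenylated. Known antisense RNAs act on their neighbour in cis or elsewhere in the cell, some only host small nucleolar RNAs in their introns, and for most no function is established.

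The promoter windows of 5 genes are printed because they belong to genes on which the results turn: NNT-AS1, ZNF667-AS1 and SERTAD4-AS1 were at or near 0 in the same lines as their sense genes, UNC5B-AS1 had the highest level of any gene here in a single line apart from LRRC75A-AS1, and NCBP2-AS2 starts 26 bases from its sense gene. Each window runs from 250 bases before to 50 bases after the start in RefSeq (GRCh38.p14), 5′ to 3′ on the strand of the antisense gene. Capitals mark 3 short motifs found on either strand: the core of a GC box, an ETS-type motif and a TATA box, spelled out after the windows. NNT-AS1 is at chr5:43603181-43603480 on the minus strand, ZNF667-AS1 at chr19:56477624-56477923 on the plus strand, SERTAD4-AS1 at chr1:210233836-210234135 on the minus strand, NCBP2-AS2 at chr3:196942424-196942723 on the plus strand and UNC5B-AS1 at chr10:71218179-71218478 on the minus strand.
NNT-AS1: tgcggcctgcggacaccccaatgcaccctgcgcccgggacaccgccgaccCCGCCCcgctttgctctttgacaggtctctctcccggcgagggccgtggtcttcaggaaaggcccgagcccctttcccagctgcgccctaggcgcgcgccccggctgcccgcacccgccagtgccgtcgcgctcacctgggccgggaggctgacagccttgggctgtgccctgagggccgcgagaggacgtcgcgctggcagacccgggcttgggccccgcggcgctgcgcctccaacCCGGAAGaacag
ZNF667-AS1: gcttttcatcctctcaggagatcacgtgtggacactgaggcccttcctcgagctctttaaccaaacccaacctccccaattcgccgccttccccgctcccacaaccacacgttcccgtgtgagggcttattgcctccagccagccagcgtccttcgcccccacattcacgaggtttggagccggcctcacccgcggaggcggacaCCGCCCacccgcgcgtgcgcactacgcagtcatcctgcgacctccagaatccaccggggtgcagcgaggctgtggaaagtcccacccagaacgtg
SERTAD4-AS1: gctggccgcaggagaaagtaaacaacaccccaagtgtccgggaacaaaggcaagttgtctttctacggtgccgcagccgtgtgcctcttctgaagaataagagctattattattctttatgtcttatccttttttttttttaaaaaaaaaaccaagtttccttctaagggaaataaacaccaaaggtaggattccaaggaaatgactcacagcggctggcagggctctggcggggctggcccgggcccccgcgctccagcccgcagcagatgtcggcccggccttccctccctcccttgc
NCBP2-AS2: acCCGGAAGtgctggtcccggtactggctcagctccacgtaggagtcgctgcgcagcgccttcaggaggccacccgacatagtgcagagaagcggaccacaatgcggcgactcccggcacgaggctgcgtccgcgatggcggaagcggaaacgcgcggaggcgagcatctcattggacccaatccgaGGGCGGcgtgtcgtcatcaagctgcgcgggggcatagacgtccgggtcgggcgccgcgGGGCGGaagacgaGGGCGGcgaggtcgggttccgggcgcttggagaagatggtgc
UNC5B-AS1: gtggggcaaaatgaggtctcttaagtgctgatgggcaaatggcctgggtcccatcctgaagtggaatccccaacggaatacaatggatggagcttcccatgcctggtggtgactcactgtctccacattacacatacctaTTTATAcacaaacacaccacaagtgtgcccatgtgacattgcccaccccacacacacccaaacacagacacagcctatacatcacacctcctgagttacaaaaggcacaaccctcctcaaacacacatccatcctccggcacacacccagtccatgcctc

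The windows were chosen after the values of these genes were seen. The RefSeq start was the GENCODE 29 start for NNT-AS1 and UNC5B-AS1 and lay 51 bases from it for NCBP2-AS2, 162 for SERTAD4-AS1 and 624 for ZNF667-AS1. NCBP2-AS2 had 3 matches to the GC box core and 1 to the ETS-type motif, NNT-AS1 had 1 of each, and ZNF667-AS1 had 1 match to the GC box core. UNC5B-AS1 had a match to the TATA box sequence, but on the strand opposite to the antisense gene and well before its start. Whether it acts as a TATA box was not tested. This window had few CpG dinucleotides, with an observed over expected ratio of 0.112. SERTAD4-AS1 held none of these motifs.

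Promoter windows were found for 137 of the 173 genes. The GC box core, searched as GGGCGG, occurred on either strand in 70.1% of them and in 45.0% of all 35116 windows in the RefSeq table. For the ETS-type motif, searched as CCGGAAG on either strand, the shares were 19.0% and 10.3%. An NRF1-type motif, searched as GCATGCG on either strand, was in 7.30% and 3.91% of windows, and the TATA box, searched as TATAAA on either strand, in 3.65% and 11.5%. The median CpG observed over expected ratio was 0.816 against 0.579. None of these motifs contains another of them. The antisense genes shown here were chosen for being expressed, whereas the table holds genes at any level, and these shares are a description.

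The 173 genes had mean levels from 1.01 to 254.5 CPM with a median of 3.18 CPM: 21 were at 10 CPM or more, 98 between 2 and 10 CPM and 54 under 2 CPM. In GENCODE 29, 113 are of the type antisense, 28 are long intergenic noncoding RNAs, 21 are processed transcripts and 2, MMP24-AS1 and NCBP2-AS2, are protein coding. The transcript with the most reads of each gene had a median length of 1753 nt and 3 exons, and 22 genes had a single exon there. The name before AS gave a sense gene with values of its own for 164 genes. For 5 more the sense gene was joined with other genes under a single identifier. HOXD-AS2, HOXA-AS2, HOXB-AS1 and RPARP-AS1 have no gene of that exact name.

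In all 164 pairs the genes lay on opposite strands. They overlapped at their 5′ ends in 61 pairs (37.2%) and lay head to head without overlap within 2000 bases in 37 (22.6%). In 29 pairs (17.7%) they overlapped at their 3′ ends, in 21 (12.8%) the antisense gene lay within the sense gene, and in 15 (9.15%) the sense gene lay within the antisense gene. Over all 1179 antisense-named genes with a sense gene in the file, expressed or not, 41.8% lay within the sense gene, 27.8% overlapped it at the 5′ ends and 10.1% were head to head. Exons of the pair shared bases in 86 pairs, with a median of 327.5 bases, and no base in 78 (47.6%). Whether reads were counted by strand is not stated in the sources used here, so in pairs with shared exon bases reads of the antisense gene and of the sense gene cannot be told apart with certainty.

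Library totals lay between 1729782 and 3666224 counts, and a count of 0 allows up to 3 counts, or 0.643 CPM over the pair of IGROV-1 PromethION libraries and 1.18 to 1.73 CPM elsewhere on PromethION. Together the 173 genes took 0.0650% of the counts in OVMANA (95% Wilson interval 0.0614 to 0.0687), 0.169% in OVKATE (0.163 to 0.175), 0.131% in OVTOKO, 0.105% in SK-OV-3, 0.140% in COV362 and 0.109% in COV504. In IGROV-1 the share was 0.130% and 0.127% on PromethION and 0.134% in both MinION libraries. OVKATE had the highest share and OVMANA the lowest. Every other line except OVTOKO lay outside the range of the 4 IGROV-1 libraries. Intervals and floors cover counting error only. Folds given below against a floor take the higher level as read, without its own counting error. Mitochondrial ribosomal RNA took 9.13% and 10.9% of counts in the IGROV-1 PromethION libraries and 1.01% to 3.31% in the others, and its part in the shares is given by the totals without mitochondrially encoded genes, where the IGROV-1 PromethION values were 0.150% and 0.149%.

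LRRC75A-AS1 (ENSG00000175061, chromosome 17, 16438822 to 16478678), which hosts the small nucleolar RNAs SNORD49A, SNORD49B and SNORD65 in its introns, supplied 7.08% to 37.9% of these counts. Its level was 427 and 416 CPM in the IGROV-1 PromethION libraries, 506 and 478 CPM in the MinION libraries, 435 CPM in OVTOKO, 306 CPM in COV362, 128 CPM in COV504, 120 CPM in OVKATE, 109 CPM in SK-OV-3 and 95.1 CPM in OVMANA. IGROV-1, OVTOKO and COV362 stood above the 4 other lines with no overlap. Against IGROV-1 PromethION the log2 change was -2.17 (SE 0.18) in SK-OV-3, -2.12 (SE 0.18) in OVKATE, -2.09 (SE 0.18) in OVMANA and -1.80 (SE 0.17) in COV504, with adjusted p from 4.05e-05 to 1.03e-04 (edgeR quasi-likelihood test, Benjamini-Hochberg). These 4 calls held in every alternative fit. In OVTOKO (0.12, SE 0.16) and COV362 (-0.42, SE 0.16) the change did not pass the test. LRRC75A itself, the sense gene, was at 0 in 8 libraries and at most 0.890 CPM. The transcript ENST00000475953 gave 72.8% to 83.0% of the reads of LRRC75A-AS1 in each of the 10 libraries.

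**Figure D1:**
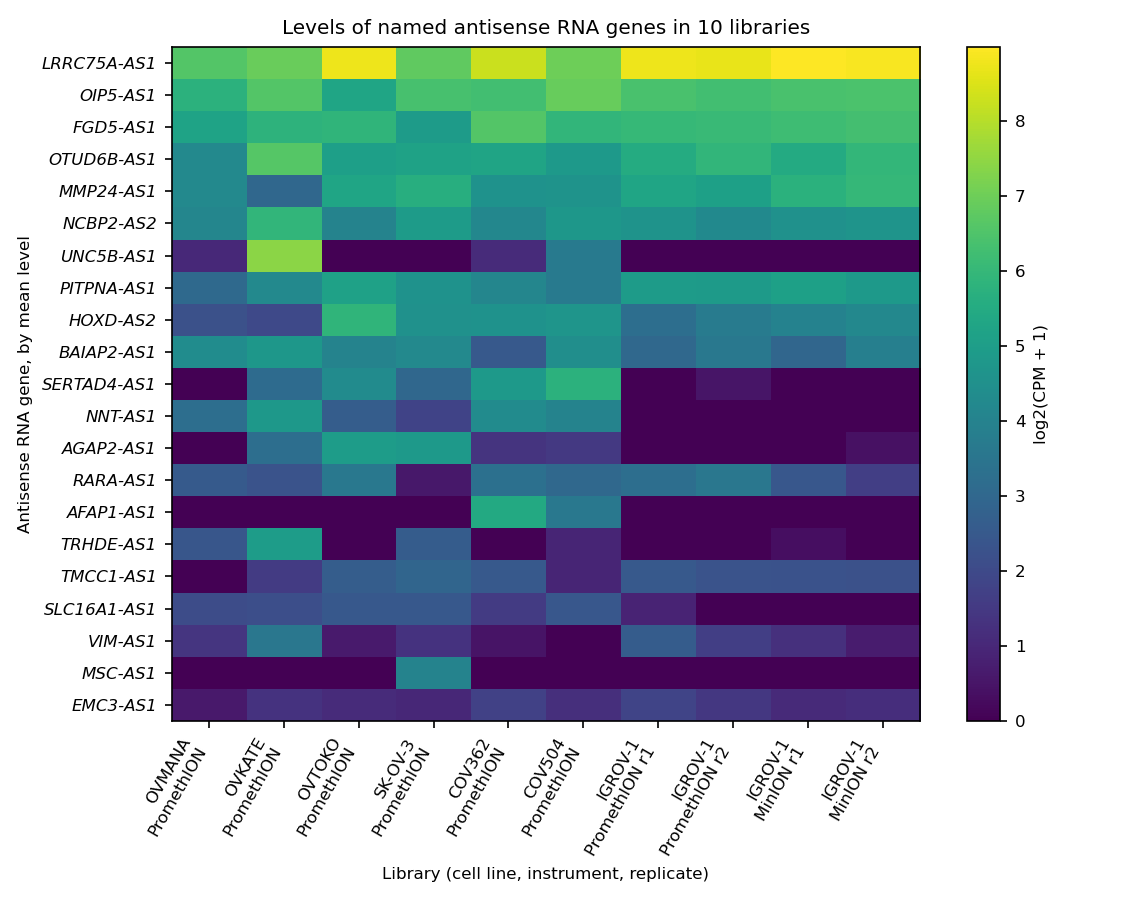
Levels of 21 named antisense genes as log2(CPM + 1), with genes in rows ordered by mean level and the 10 libraries in columns. LRRC75A-AS1 is high in all libraries and UNC5B-AS1 is high in OVKATE (169 CPM).

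OIP5-AS1 and FGD5-AS1 were the next in mean level and were present in every library. OIP5-AS1 (chromosome 15, 41283990 to 41309737), a long RNA also known as Cyrano, lay at 83.7 and 75.6 CPM in IGROV-1 on PromethION and at 84.8 and 85.9 CPM on MinION, and between 38.2 CPM (OVTOKO) and 118 CPM (COV504) in the other lines. It fell in OVTOKO (log2 change -0.98 with SE 0.20, Benjamini-Hochberg adjusted p = 0.00641 in edgeR), a call that DESeq2 did not make (adjusted p = 0.26). FGD5-AS1 (chromosome 3, 14920347 to 14948424) lay at 63.2 and 66.6 CPM in IGROV-1 on PromethION, 71.5 and 76.9 CPM on MinION, 29.9 CPM in SK-OV-3, 36.3 CPM in OVMANA, 55.4 CPM in OVKATE, 58.4 CPM in OVTOKO, 59.2 CPM in COV504 and 95.6 CPM in COV362. FGD5, a guanine nucleotide exchange factor known from endothelial cells, was listed at 0 in all 10 libraries, so FGD5-AS1 was read without its sense gene. A single transcript gave 98.3% to 100% of the reads of FGD5-AS1 and 91.8% to 97.0% of those of OIP5-AS1.

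Of the remaining genes among the 12 with the highest means, MMP24-AS1 was low in OVKATE. It had 6.92 CPM there, 37.6 and 33.5 CPM in IGROV-1 on PromethION, 52.9 and 62.1 CPM on MinION and 17.6 to 49.1 CPM in the other lines. The log2 change in OVKATE was -2.65 (SE 0.30, edgeR Benjamini-Hochberg adjusted p = 1.97e-04) and held in every alternative fit, and MMP24, a membrane-type metalloproteinase gene, fell there too (from 20.1 and 32.6 to 1.98 CPM). HOXD-AS2, in the HOXD cluster of body-patterning genes, rose in OVTOKO to 57.8 CPM from 8.54 and 12.5 CPM (log2 change 2.53 with SE 0.27, Benjamini-Hochberg adjusted p = 2.64e-04 in edgeR). NCBP2-AS2, the neighbour of a gene for a subunit of the cap-binding complex, rose in OVKATE to 59.4 CPM from 23.5 and 18.0 CPM (log2 change 1.21 with SE 0.23, Benjamini-Hochberg adjusted p = 0.00276 in edgeR), a call lost with DESeq2. OTUD6B-AS1 was at 97.4 CPM in OVKATE, 45.7 and 58.8 CPM in IGROV-1 on PromethION and 17.6 to 36.8 CPM in the other lines. PITPNA-AS1 and BAIAP2-AS1 had means of 21.1 and 15.2 CPM, with lowest and highest libraries of 7.48 and 34.1 CPM for the former and 4.70 and 25.7 CPM for the latter.

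The 6 lines were each set against the PromethION libraries of IGROV-1 in a joint fit of the 10 libraries, in which the 139 antisense genes that passed the filter on low counts were tested among 13030 genes. The 34 others had means of at most 2.32 CPM. A gene passes this filter more easily when it is high in 1 group, so counts among the 139 are no measure for all 173. The residual spread comes from the IGROV-1 replicates alone, each other line rests on a single library, and all 6 comparisons share the IGROV-1 libraries. Over all lines at once, 93 of 139 genes differed at an adjusted p under 0.05, where 81.3% of all genes did. DESeq2 called 14 of the 139, and 29.1% of all genes.

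In OVMANA 29 of 139 antisense genes changed (35.4% of all genes), 8 of them higher (18.9% of all genes) and 21 lower (16.5%). In OVKATE 61 changed (49.2% of all genes), 41 higher (26.8%) and 20 lower (22.4%). OVTOKO had 23 calls (34.1% of all genes) with 12 higher (18.2%) and 11 lower (15.9%), and SK-OV-3 had 33 (41.8%) with 17 higher (22.0%) and 16 lower (19.8%). COV362 had 43 calls (42.5%) with 30 higher (23.7%) and 13 lower (18.8%), and COV504 had 51 (43.5%) with 28 higher (24.0%) and 23 lower (19.6%). The median log2 change of the antisense genes was 0.83 in OVKATE and -0.35 in OVMANA, where the median of all genes was 0.01 and -0.01. In OVMANA it was -0.23 without PromethION replicate 1, -0.21 without mitochondrially encoded genes and -0.20 with the PromethION libraries only. DESeq2 called far fewer: in OVKATE 7 were higher and 4 lower (16.1% of all genes were called), in COV504 6 and 3 (13.5%), and in OVTOKO 5 and 2 (9.96%). It called 4 higher and 2 lower in COV362 (12%), 2 and 4 in SK-OV-3 (12.8%), and 2 and 2 in OVMANA (11.1%), where the excess of lower calls was not seen. Without MinION replicate 1 edgeR called 15 in OVMANA and 14 in OVTOKO, and without MinION replicate 2 it called 19 and 15.

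**Figure D2:**
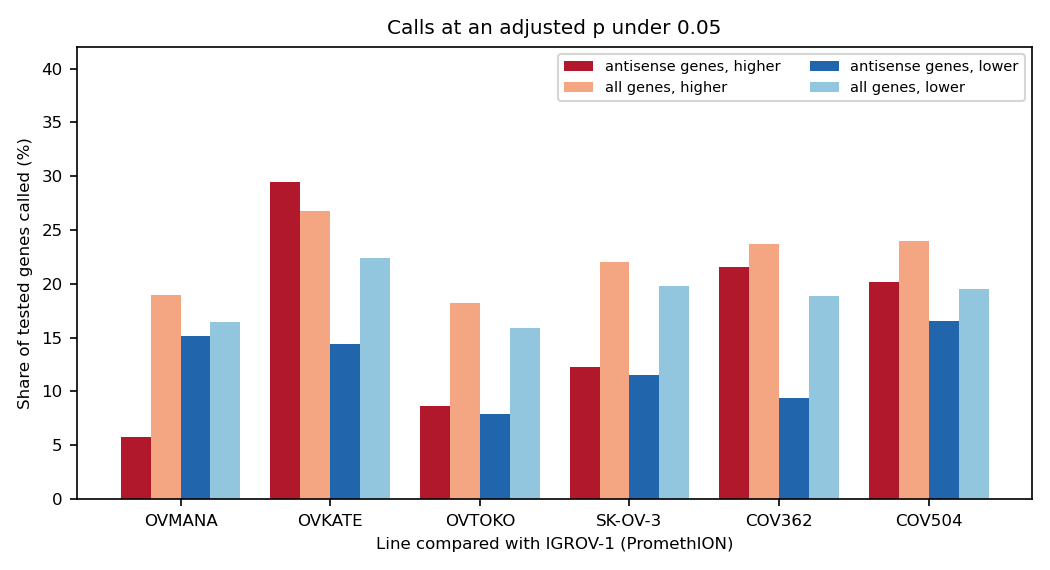
Share of tested genes called higher or lower than in IGROV-1 PromethION (adjusted p under 0.05) for each line, in percent, for the 139 antisense genes and for all 13030 genes. The bar for higher antisense genes is tallest in OVKATE (41 of 139) and shortest in OVMANA (8 of 139).

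OVKATE was also the line in which the most antisense genes had their highest level, without any test. Of the 173 genes 60 (34.7%) were highest there and 7 (4.05%) in OVMANA. Among the 4734 genes of any kind with a mean of 1 to 10 CPM, a range that holds 152 of the antisense genes, the shares were 27.99% and 8.94%, against 34.2% and 4.61% for those 152. In 29 antisense genes (16.8%) a single line held over 50% of the level summed over the 7 lines. At 1 to 10 CPM that share was 18.4% for antisense genes and 25.9% for all genes.

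ELFN1-AS1, GAS6-AS1, DLX6-AS1 and NNT-AS1 were each called in all 6 comparisons, and the names of the first 3 were chosen after their values were seen. These 3 were lower in every other line than in IGROV-1. Outside IGROV-1, GAS6-AS1 had at most 3 counts and DLX6-AS1 at most 8 in any line. Both thus passed the filter on low counts through IGROV-1, where they are high, and their calls are given as a description. The share of all genes called in all 6 comparisons was not counted. ELFN1-AS1, at 22.2 and 21.9 CPM in IGROV-1 on PromethION and 19.6 and 25.3 CPM on MinION, was at 8.90 CPM in OVKATE, 1.60 CPM in OVMANA and 0 in the 4 other lines. GAS6-AS1 (12.4 and 10.7 CPM in IGROV-1 on PromethION, 8.73 and 9.58 CPM on MinION) was at 1.73 CPM or less elsewhere, and DLX6-AS1 (11.1 and 9.45 CPM, then 9.55 and 9.27 CPM) at 3.21 CPM or less. DESeq2 lost the calls of ELFN1-AS1 in OVMANA and OVKATE, all 6 of GAS6-AS1 and 5 of 6 of DLX6-AS1, which kept that in SK-OV-3. The DLX6-AS1 call in OVMANA was also lost without PromethION replicate 1 (edgeR Benjamini-Hochberg adjusted p = 0.0893), MinION replicate 1 (0.0713) or MinION replicate 2 (0.0705).

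NNT-AS1 moved the other way. NNT encodes a proton-translocating transhydrogenase of the inner mitochondrial membrane, and NNT-AS1 (chromosome 5, 43571594 to 43603230) starts 538 bases from it in the opposite direction, with 113 shared exon bases. NNT-AS1 had no count in any of the 4 IGROV-1 libraries and lay at 26.7 CPM in OVKATE, 19.2 CPM in COV362, 15.1 CPM in COV504, 8.55 CPM in OVMANA, 5.203 CPM in OVTOKO and 2.53 CPM in SK-OV-3. NNT likewise had no count in the 4 IGROV-1 libraries and lay at 62.8, 36.0, 24.9, 27.3, 10.4 and 11.1 CPM in the same order of lines. Both genes were thus at 0 in the same line and present in the 6 others. NNT-AS1 as read was 41.6-fold above the IGROV-1 floor in OVKATE, 29.9-fold in COV362, 23.5-fold in COV504, 13.3-fold in OVMANA, 8.10-fold in OVTOKO and 3.94-fold in SK-OV-3 (edgeR Benjamini-Hochberg adjusted p from 3.63e-04 to 0.0332). The values in OVTOKO and SK-OV-3 rest on 9 and 5 counts, so the true folds may be smaller. The call in SK-OV-3 was lost without MinION replicate 1 (edgeR Benjamini-Hochberg adjusted p = 0.08), without MinION replicate 2 (0.0657) and with DESeq2 (0.137), and that in OVTOKO without MinION replicate 1 (0.0548).

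Several antisense genes were high in 1 or a few lines and at or near 0 in IGROV-1. Like NNT-AS1, such genes passed the filter on low counts through the lines in which they are high. Their calls are therefore given as a description. UNC5B-AS1 (chromosome 10, 71217224 to 71218228), inside the gene of a netrin receptor with no shared exon base, had 169 CPM in OVKATE, 12.01 CPM in COV504, 1.18 CPM in COV362, 1.07 CPM in OVMANA and 0 in OVTOKO, SK-OV-3 and all 4 IGROV-1 libraries. It was 263-fold above the IGROV-1 floor in OVKATE and 18.7-fold above it in COV504 (edgeR Benjamini-Hochberg adjusted p = 1.84e-05 and 0.00108), and both calls held in every alternative fit. UNC5B had 161 CPM in OVKATE and 15.6 CPM in COV504, but also 45.1 CPM in SK-OV-3, where UNC5B-AS1 had no count. Presence of the sense gene alone therefore did not go with reads of the antisense gene in SK-OV-3. AFAP1-AS1 (chromosome 4, 7754090 to 7778928), a long RNA from the gene of an actin filament-associated protein, had 43.5 CPM in COV362, 11.1 CPM in COV504 and 0 in the 8 other libraries. The first 2 levels were 67.7-fold and 17.3-fold above the IGROV-1 floor (edgeR Benjamini-Hochberg adjusted p = 1.87e-04 and 0.0019). AFAP1 was at 57.6 and 60.95 CPM in those lines, but at 75.2 CPM in OVKATE, where AFAP1-AS1 had no count. AGAP2-AS1 (chromosome 12, 57726271 to 57728356) had 30.6 CPM in OVTOKO and 28.4 CPM in SK-OV-3, 8.41 CPM in OVKATE, 1.57 and 1.78 CPM in COV362 and COV504 and at most 0.309 CPM in OVMANA and IGROV-1. It was 47.7-fold above the IGROV-1 floor in OVTOKO and 44.1-fold above it in SK-OV-3 (edgeR Benjamini-Hochberg adjusted p = 2.61e-04 and 2.78e-04). Its sense gene AGAP2, for a GTPase-activating protein, was at 1.01 CPM in SK-OV-3 and at most 0.273 CPM elsewhere, so this antisense gene was read almost without its partner.

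The level of an antisense gene was next set against that of its sense gene over the 7 lines, with IGROV-1 as the mean of its PromethION libraries, as Pearson's r of log2(CPM + 1). The 145 pairs whose sense gene had a mean of at least 1 CPM gave a median r of 0.48 (Spearman 0.45): 117 were above 0, 72 (49.7%) above 0.5 and 4 under -0.5. The same antisense genes with the sense genes of all other pairs, 20735 combinations, gave a median of 0.07, with 16.7% above 0.5 and 11.3% under -0.5. All these values share the same 7 libraries or line means, so they describe these lines. Without the 2 lines farthest from the median of the sense gene the median r was 0.27. Of the 72 pairs 42 stayed above 0.5. Leaving out these lines narrows the range of the sense gene, which can lower r by itself. It was not done for the combinations with other sense genes. How far the relation rests on single lines can therefore not be told from this drop.

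**Figure D3:**
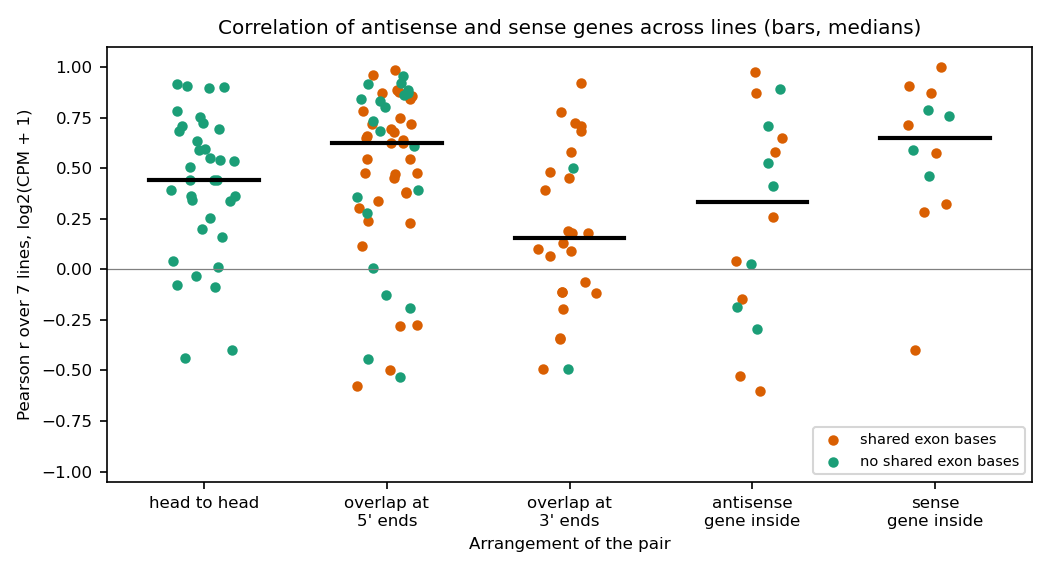
Pearson r over the 7 lines between each antisense gene and its sense gene, by arrangement of the pair. Each point is a pair, bars are medians, and colour shows whether exons share bases: pairs that overlap at the 5′ ends have a median of 0.63 and those that overlap at the 3′ ends 0.15, or 0.44 and 0.25 without the 2 farthest lines.

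By arrangement, the median r was 0.65 where the sense gene lay inside the antisense gene (12 pairs), 0.63 in pairs overlapping at the 5′ ends (55), 0.44 head to head (35), 0.34 where the antisense gene lay inside (16) and 0.15 in pairs overlapping at the 3′ ends (26). Without the 2 lines farthest from the median of the sense gene these medians were 0.22, 0.44, 0.11, 0.06 and 0.25, so the order of the arrangements was not the same, though pairs overlapping at the 5′ ends then had the highest. Pairs with shared exon bases, in which a read could be given to the wrong gene, had a median of 0.48 (76 pairs), and those without a shared base 0.53 (69 pairs). Without the 2 farthest lines the medians were 0.27 and 0.40. Antisense genes of at least 10 CPM had a median r of 0.61 (16 pairs).

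The 4 pairs with the highest r were MSC, SERTAD4, TRHDE and NNT with their antisense genes. MSC-AS1 and MSC, the gene of musculin, had 15.2 and 17.2 CPM in SK-OV-3 and no count in the other 9 libraries. Since both were at 0 in 6 of 7 lines, their r rests on SK-OV-3 alone and none could be computed without it. SERTAD4-AS1 (chromosome 1, 210231456 to 210234047) had 53.8 CPM in COV504, 27.8 CPM in COV362, 19.1 CPM in OVTOKO, 7.91 CPM in OVKATE and 7.09 CPM in SK-OV-3, and 0 in OVMANA and in 3 IGROV-1 libraries with 0.430 CPM in PromethION replicate 2. SERTAD4 followed with 12.9, 8.23, 9.83, 4.45 and 3.55 CPM and was at 0 in OVMANA and all IGROV-1 libraries, which gave r = 0.99 over the 7 lines and 0.95 without OVMANA and IGROV-1. The antisense gene thus was given more reads than its sense gene in each of the 5 lines that had both. Exons share 380 bases in the MSC pair, 174 in the SERTAD4 pair, 793 in the TRHDE pair and 113 in the NNT pair, so in all 4 pairs reads of the 2 genes cannot be told apart with certainty. TRHDE-AS1, within the gene of the enzyme that degrades thyrotropin-releasing hormone, had 30.2 CPM in OVKATE where TRHDE had 94.0 CPM, and r was 0.98 (0.97 without OVKATE and OVTOKO). For NNT-AS1 r was 0.96, and 0.89 without IGROV-1 and OVKATE.

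ZNF667-AS1 (chromosome 19, 56477250 to 56500666), which starts 815 bases from the zinc finger gene ZNF667 and shares no exon base with it, was named after its values were seen. It had 17.2 CPM in SK-OV-3, 14.2 CPM in COV504, 13.4 CPM in OVKATE, 10.2 CPM in COV362 and 8.02 CPM in OVMANA, and no count in OVTOKO or in any of the 4 IGROV-1 libraries. ZNF667 had 11.6, 9.34, 3.46, 7.84 and 3.74 CPM in the same order and no count in OVTOKO or IGROV-1. Over the 145 pairs and 7 lines, the antisense gene was under 1 count in 143 of 1015 values, and there the sense gene was under 1 count too in 44 (30.8%). Where the antisense gene had 1 count or more, the sense gene was under 1 count in 17 of 872 (1.95%). Among the 41 pairs with an antisense mean of at least 5 CPM the counts were 8 of 22 (36.4%) and 6 of 265 (2.26%). The 8 came from the UNC5B, SERTAD4, NNT and TRHDE pairs and, in 2 lines each, the ZNF667 and ELFN1 pairs. All these counts were made after the values were seen, and none was made with unrelated sense genes. The part of sequencing depth in these zeros was not tested. Whether a low level of both genes reflects fewer cells with the RNA or less RNA per cell cannot be told apart in bulk libraries.

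**Figure D4:**
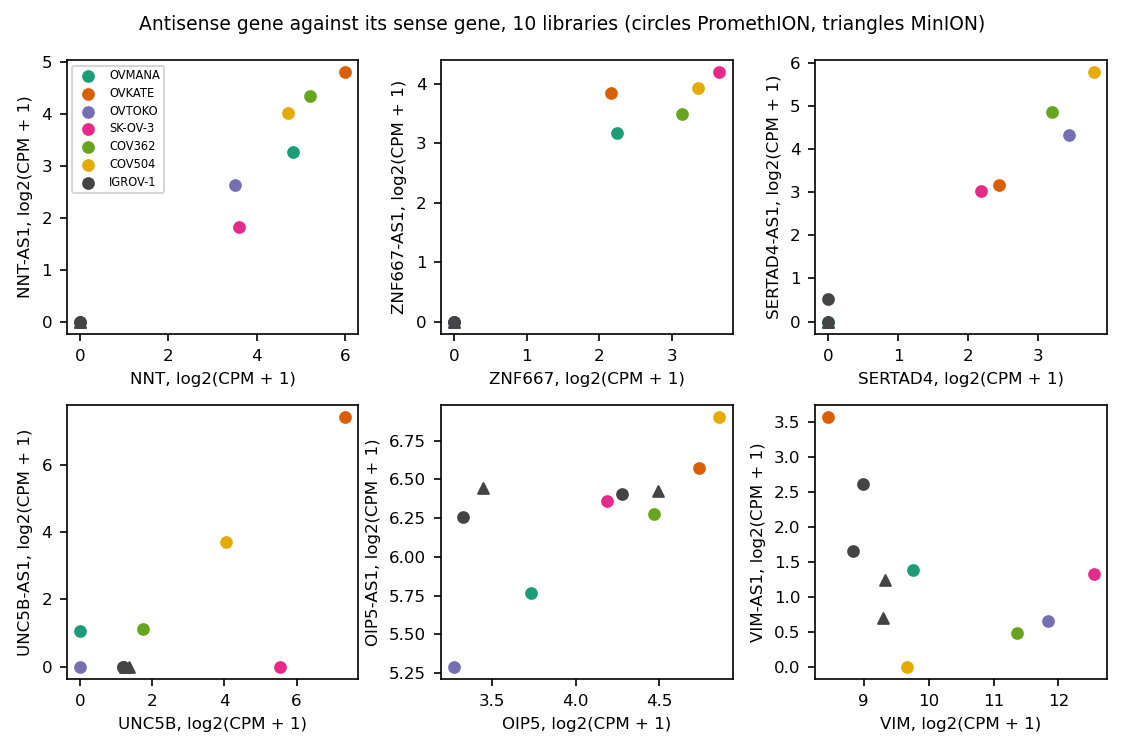
Level of 6 antisense genes (vertical) against their sense genes (horizontal), both as log2(CPM + 1), in 10 libraries with colour for the line. NNT, ZNF667 and SERTAD4 pairs are at or near 0 together in IGROV-1 (for ZNF667 the OVTOKO point lies under the IGROV-1 points), whereas VIM-AS1 is highest in OVKATE, the line with the lowest VIM.

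The 4 pairs with the lowest r were RARA (-0.60), VIM (-0.58), SLC16A1 (-0.53) and EMC3 (-0.53) with their antisense genes. VIM-AS1, which overlaps the 5′ end of the gene of vimentin, an intermediate filament protein of mesenchymal cells, had 10.9 CPM in OVKATE, 5.13 and 2.15 CPM in IGROV-1 on PromethION, and between 0 and 1.60 CPM in the other lines. VIM had its lowest level in OVKATE (351 CPM) and its highest in SK-OV-3 (5964 CPM), OVTOKO (3663 CPM) and COV362 (2637 CPM). The r was -0.76 without SK-OV-3 and OVTOKO. The VIM-AS1 libraries of IGROV-1 also differed among themselves, with 1.36 and 0.618 CPM on MinION. RARA-AS1, within the gene of a retinoic acid receptor, was lowest in SK-OV-3 (0.506 CPM), where RARA was highest (27.9 CPM). It fell there by 4.33 on the log2 scale (SE 0.91, edgeR Benjamini-Hochberg adjusted p = 0.00569), a call lost with DESeq2 (0.143). The SK-OV-3 level of RARA-AS1 rests on 1 count, under the floor of 1.52 CPM there, so the size of this fall is uncertain. Without SK-OV-3 and OVTOKO the r of this pair was -0.24. SLC16A1-AS1, beside the gene of a monocarboxylate transporter, had 0.854, 0, 0 and 0 CPM in the IGROV-1 libraries, where SLC16A1 was highest (84.3 to 134 CPM), and 1.96 to 4.62 CPM in the other lines. EMC3-AS1 lay between 0.534 and 2.56 CPM and did not pass the filter for the test.

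In the tests, 118 pairs had both genes in the fit. Both changed in the same direction in 25 pairs in OVKATE and in opposite directions in 4. The counts were 24 and 9 in COV504, 17 and 3 in COV362, 17 and 4 in SK-OV-3, 12 and 4 in OVMANA, and 7 and 1 in OVTOKO. The antisense gene alone changed in 22 pairs in OVKATE, 12 in COV362, 11 in OVTOKO, 10 in COV504, 8 in OVMANA and 6 in SK-OV-3. In the same order of lines, the sense gene alone changed in 31, 30, 38, 27, 32 and 35 pairs. Neither gene changed in 36, 56, 61, 48, 62 and 56. Of all genes tested, 49.2%, 42.5%, 34.1%, 43.5%, 35.4% and 41.8% changed. Pairs of unrelated genes were not counted in this way, so these counts are a description. TMCC1-AS1 in OVMANA was a pair in opposite directions: it had no count there and 4.70 and 3.87 CPM in IGROV-1 on PromethION. The IGROV-1 mean was 2.67-fold above the OVMANA floor (edgeR Benjamini-Hochberg adjusted p = 0.0164, 0.244 with DESeq2). TMCC1, for a protein of the endoplasmic reticulum, rose to 35.8 CPM from 2.56 and 4.30 CPM (log2 change 3.43 with SE 0.42, Benjamini-Hochberg adjusted p = 4.30e-04 in edgeR). PITPNA-AS1 fell in COV504 (log2 change -1.35 with SE 0.30, Benjamini-Hochberg adjusted p = 0.00733 in edgeR) where PITPNA, for a phosphatidylinositol transfer protein, rose (1.16 with SE 0.21, Benjamini-Hochberg adjusted p = 0.00299 in edgeR). Both of these calls were lost with DESeq2 (0.38 and 0.235).

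By reads the sense gene was higher in 133 of 164 pairs and the antisense gene in 31. Divided by transcript length, the sense gene was higher in 116 pairs and the antisense gene in 48. The medians were 4.85 CPM per kb for sense genes and 1.91 CPM per kb for antisense genes. Counts of reads from single molecules do not call for this division, and it favours genes with short transcripts. The values per kb are thus a description and no correction of the counts by reads. LRRC75A-AS1 was at 220 CPM per kb, PITPNA-AS1 at 39.0, UNC5B-AS1 at 35.4 and MMP24-AS1 at 34.7 CPM per kb.

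Members of named groups were also counted, with the groups chosen after values were seen. Of 15 antisense genes of zinc finger genes 12 were tested, and in OVKATE 4 were higher and 0 lower, in COV362 4 and 1, in COV504 3 and 2, in SK-OV-3 3 and 0, in OVMANA 1 and 0, and in OVTOKO 0 and 1. Of all genes tested, 26.8% were higher and 22.4% lower in OVKATE and 23.7% and 18.8% in COV362. The shares were 24.0% and 19.6% in COV504, 22.0% and 19.8% in SK-OV-3, 18.9% and 16.5% in OVMANA and 18.2% and 15.9% in OVTOKO. With 12 genes such counts are not set apart from these shares. Of the 3 antisense genes of the HOX clusters, HOXA-AS2 lay at 17.5 and 19.8 CPM in IGROV-1 on PromethION, 15.5 and 7.72 CPM on MinION and 0.495 to 9.40 CPM in the other lines. It fell in OVKATE (log2 change -5.37 with SE 0.93, Benjamini-Hochberg adjusted p = 0.00175 in edgeR). The OVKATE level of HOXA-AS2 rests on 1 count, under the floor of 1.48 CPM there, so the size of this fall is uncertain. HOXB-AS1 was between 2.14 and 4.30 CPM in IGROV-1 and at most 1.57 CPM in the others. Of the 83 antisense genes whose start lies within 2000 bases of that of the sense gene, 67 were tested, of which 27 were higher and 3 lower in OVKATE; of the 81 in other arrangements, 66 were tested, with 14 higher and 14 lower. Of all genes 26.8% were higher and 22.4% lower there. Among the 67 tested of the first group, the higher and lower calls numbered 16 and 9 in COV504 (24.0% and 19.6% of all genes). The calls numbered 13 and 2 in COV362 (23.7% and 18.8%), 12 and 3 in SK-OV-3 (22.0% and 19.8%), 7 and 3 in OVTOKO (18.2% and 15.9%) and 5 and 7 in OVMANA (18.9% and 16.5%). Among the 66 tested of the second group they numbered 15 and 10 in COV362, 11 and 12 in COV504, 5 and 12 in SK-OV-3, 4 and 8 in OVTOKO and 3 and 13 in OVMANA, beside the same shares of all genes. The difference between the groups was not tested.

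Genes known to remove antisense and promoter-upstream RNA were described from a list of 23, of which 19 were tested: the exosome and its nuclease, the NEXT and PAXT adaptors, the cap-binding complex with its partners, and the catalytic subunit of Integrator. In the test over all lines 14 of 19 differed, where 81.3% of all genes did. Higher and lower calls numbered 2 and 4 in OVKATE (26.8% and 22.4% of all genes), 1 and 6 in SK-OV-3 (22.0% and 19.8%), 1 and 4 in OVMANA (18.9% and 16.5%), 1 and 3 in COV504 (24.0% and 19.6%), 0 and 6 in OVTOKO (18.2% and 15.9%), and 1 and 4 in COV362 (23.7% and 18.8%). ZCCHC8, the NEXT scaffold, fell in OVKATE (log2 change -1.89 with SE 0.30, Benjamini-Hochberg adjusted p = 0.00116 in edgeR) and in COV362 (-1.97 with SE 0.30, adjusted p = 0.00133). Its calls in OVTOKO (-0.86) and COV504 (-0.87) were lost in 9 and 6 of 9 alternative fits. The exosome subunits EXOSC7, EXOSC1 and EXOSC4 fell in OVKATE (-1.53, -1.03 and -0.92) and in SK-OV-3 (-1.31, -1.17 and -1.33), and EXOSC6 rose in both (0.78 and 0.98). DESeq2 made none of these calls of ZCCHC8 and the exosome subunits (adjusted p from 0.123 to 0.735), and those of EXOSC1 were also lost without MinION replicate 1 (0.0531 in OVKATE and 0.0517 in SK-OV-3). Calls of these subunits were not confined to OVKATE and SK-OV-3. In the main edgeR fit EXOSC4 also fell in OVMANA (-1.17) and COV504 (-0.79). EXOSC6 rose in COV504 (1.21) and fell in OVMANA (-1.32), and EXOSC1 rose in COV362 (0.63). The genes named here were chosen after their values were seen. Their part in the levels of the antisense genes was not tested.

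Between instruments, none of the 60 antisense genes that passed the filter in IGROV-1 was called with edgeR's quasi-likelihood test (0.817% of all genes were, 0.110% higher and 0.707% lower on MinION), and DESeq2 called 0 (0.647% of all genes). With the replicate number as a block edgeR called 9 of the 60 (19.7% of all genes), so the count of 0 depends on whether same-numbered libraries are treated as pairs. The labels do not say that they are, although the epithelial marker sums given above were alike in same-numbered libraries. An unadjusted p under 0.05 was reached by 9, of which 3 were higher and 6 lower on MinION. Among the named genes, low unadjusted p values belonged to MMP24-AS1 (37.6 and 33.5 CPM on PromethION, 52.9 and 62.1 CPM on MinION, log2 change 0.65, unadjusted p = 0.00282, edgeR Benjamini-Hochberg adjusted p = 0.119) and RARA-AS1 (8.54 and 10.7 CPM, then 4.36 and 2.16 CPM, log2 change -1.56, unadjusted p = 0.00419, edgeR Benjamini-Hochberg adjusted p = 0.13). In data simulated for this comparison over 10014 genes, a log2 change of 1 was recovered in 64.6% of changed genes, so smaller differences were often not detectable. The changed genes were given a single fixed spread and drawn from levels that reach far above those of most antisense genes. Recovery for genes at the levels of the antisense genes was not simulated and may be lower. The level of 130 of the 173 genes was under 10 counts in the median PromethION library, which limits what single libraries show.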

How the data were processed

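Per the submitters' processing notes, reads were aligned to GRCh38 with minimap2 2.24-r1122; of the quantifier, annotation release and strand setting, nothing is stated in the sources used here. The authors deposited an estimated count and a TPM per transcript for each library. The deposited TPM equalled CPM (largest difference 5.64e-11) and carries no length term. Estimated counts were summed per gene and rounded, and CPM was computed from them.

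Gene models came from GENCODE 29 and promoter windows from RefSeq (GRCh38.p14). Antisense genes were paired with the gene named before AS, by symbol in 163 cases and by an older symbol in 1.

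Differences were tested with edgeR 4.0.16 in R 4.3.3 (quasi-likelihood, TMM, filterByExpr by group, Benjamini-Hochberg over all genes tested, calls under 0.05, two-sided). The line comparisons used all 10 libraries with 2 residual degrees of freedom, so each single library is assumed to vary like the IGROV-1 replicates, whose coefficient of biological variation was 11.7%. DESeq2 1.42.0 was an alternative. Among genes with at least 20 counts in the pair, replicates differed by more than counting noise. The chi-square per gene was 4.36 on PromethION (9673 genes) and 6.73 on MinION (10200 genes). For the 52 and 65 antisense genes among them it was 1.26 and 1.63. This value depends on the count of a gene, so it does not compare the 2 sets. The median absolute log2 ratio between replicates was 0.317 and 0.289 for the antisense genes and 0.206 and 0.219 for all genes. On data simulated for COV362 against IGROV-1 over 11769 and 11818 genes, log2 changes of 1 and 2 were recovered in 32% and 81.9% of changed genes. The changed genes had a single fixed spread and levels reaching far above those of most antisense genes, so recovery for the latter is not known.

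The genes with the 12 highest means, the largest rise and fall called in each line, the 4 highest and lowest pair correlations and the 3 nearest to either side of the threshold were named by rule; other names were chosen after values were seen. Results on some genes that this rule selects are not reported here. Members and lists were chosen with earlier results of these data known. Alternatives were another normalization, no filter, mitochondrially encoded genes removed, other pseudocounts, PromethION only and leaving out each IGROV-1 library. Depth was 1729782 to 3666224 counts per library.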

Additional observations from a re-analysis of the deposited data

How the results depend on the processing

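Of 135 calls of named genes, sense genes included, 54 held in every alternative fit; over 1212 such fits 1010 kept the call, 202 lost it (78 with DESeq2, 54 without a MinION library) and 0 changed direction. With DESeq2 the antisense genes called were 14 over all lines, 4 in OVMANA, 11 in OVKATE, 7 in OVTOKO, 6 in SK-OV-3, 6 in COV362 and 9 in COV504. DESeq2 gave no adjusted p for 24 to 63 antisense genes in these comparisons. With each IGROV-1 library left out in turn edgeR called 15 to 36 in OVMANA and 14 to 33 in OVTOKO, both lowest without MinION replicate 1 and highest without PromethION replicate 1; each of these fits has fewer IGROV-1 libraries for the spread. With the IGROV-1 replicate numbers as a replicate block, 9 antisense genes were called between instruments (3 higher and 6 lower on MinION; 1978 of 10041 genes in all). Deviations of same-numbered libraries correlated at 0.367, but the labels give no shared origin for a number and there are only 2 pairs, so the number is not taken as a pairing; KRT18 lay at 263 and 1041 CPM in PromethION replicates 1 and 2 and at 244 and 1080 CPM in MinION replicates 1 and 2. The median pair correlation of 0.48 was 0.494 and 0.504 with pseudocounts of 0.5 and 0.1 CPM, 0.453 by Spearman, 0.489 without mitochondrially encoded genes in the total, 0.457 with no filter on the sense gene, and 0.496 and 0.501 without one or the other IGROV-1 PromethION replicate. The median share of counts over the PromethION libraries was 0.128%, 0.142% without mitochondrially encoded genes and 0.0908% without LRRC75A-AS1, the last chosen after seeing the data. A mean of at least 0.5 CPM would select 245 genes and of at least 2 CPM 119.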

Other observations

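Antisense names also occur in 12 identifiers that join several overlapping genes, which the rule leaves out, and 7 of these had a mean of at least 1 CPM over the PromethION libraries. The identifier that joins PFKP, the gene of the platelet-type phosphofructokinase of glycolysis, with PITRM1-AS1 had 423 CPM in OVTOKO, 225 CPM in SK-OV-3, 221 CPM in OVKATE, 173 CPM in OVMANA, 93.4 CPM in COV504, 79.9 CPM in COV362, and 19.6 and 18.0 CPM in IGROV-1 on PromethION. The identifier that joins MTAP, the gene of a methylthioadenosine phosphorylase, with CDKN2B-AS1 had 1.33 CPM in COV504, 38.0 and 41.7 CPM in IGROV-1 on PromethION and 24.7 to 39.9 CPM in the 5 other lines. The counts of these identifiers cannot be assigned to the antisense gene, and no test was made.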
